A study of Mus musculus with 5 samples.

Results

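Interferon-stimulated genes were followed in 5 reperfused mouse hearts, 2 from sham mice and 3 from mice that had received a compound blocking the clock repressor REV-ERB alpha. The list holds 36 genes, taken by symbol from the deposited array table. Of these, 32 had a probe naming that gene alone, and 31 of the 15294 genes tested in the series were members, since Mx1 (2.28 to 2.39 on the log2 scale) lay below the level filter of 3.42. Oas1a, Dtx3l and Gbp2 were represented only by probes shared with another gene, and Ifi44 was not listed under its symbol, so these 4 were not analysed here. The tested members were sorted by role into 7 signalling factors, 21 antiviral effectors and 3 guanylate-binding proteins (GBPs).

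Interferons are secreted cytokines that signal through the JAK kinases. Type I interferons lead to ISGF3, a complex that includes STAT2 and IRF9 and binds the interferon-stimulated response element (ISRE), while interferon gamma acts mainly through the gamma-activated site (GAS). The induced genes encode RNA sensors, enzymes and scaffolds that block viral replication, and feedback inhibitors. Several members, Irf1 and the GBPs among them, also respond to interferon gamma, and Irf1 is in addition a target of NF-kB. In the heart these genes are made by muscle cells as well as by endothelial cells, fibroblasts and macrophages.

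All hearts came from wild-type C57Bl6J mice at zeitgeber time 12, in hours after lights on, and were perfused on a Langendorff apparatus, which supplies an isolated heart with buffer through the aorta. After 20 min of stabilisation, perfusion was stopped for 20 min and restored for 20 min, after which the tissue was frozen. The antagonist group (n = 3) had received the compound intraperitoneally, listed as 10 µM, at 4 h and at 1 h before the procedure; the sham group (n = 2) underwent the same ischemia and reperfusion without it. The compound is unnamed in the labels, a vehicle injection is not mentioned, and hearts without ischemia were not analysed here.

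Ventricular muscle markers were present in every heart: 8 of 8 lay above the level filter, with a summed linear level of 31900 to 33200. Antagonist replicate 2 held high atrial (11800, against at most 4310 elsewhere), adipocyte (507, against at most 111) and mesothelial marker sums (283, against at most 165). The sum of 14 macrophage and monocyte markers was 2010 and 2020 in sham, and 2190, 2290 and 2010 in antagonist replicates 1, 2 and 3. For 10 endothelial markers (5 higher, 5 lower) it was 4920 and 4950 in sham, and 4590, 4740 and 4730 in those replicates. For 8 fibroblast markers (1 higher, 6 lower) it was 4310 and 4480 in sham, and 4120, 4650 and 3830. Of the neutrophil markers 4 of 8 lay below the filter (S100a8, S100a9, Ly6g and Retnlg), as did 5 of 9 T and NK cell markers (Cd3e, Cd3g, Cd8a, Klrb1c and Gzma) and 3 of 4 B cell markers (Cd79a, Cd79b and Ms4a1). Their sums were 80.3 to 83.8, 94.9 to 98.7 and 42.7 to 47.2 over the 5 hearts. Of 5 plasmacytoid dendritic cell markers, Ccr9, Spib and Klk1 lay below the filter, and Siglech was at 3.84 on all arrays. The sum of the 5 was 321 and 314 in sham, and 268, 287 and 291 with the antagonist. Tcf4, the only one of them above 3.84, measured 8.17 and 8.14 in sham and 7.86, 8.01 and 8.01 with the antagonist. The sum is therefore mainly a reading of this gene. In such bulk RNA, fewer cells of a type and less RNA per cell cannot be told apart.

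The promoter sequences of the list are shown first because the elements that define the pathway can be read in them. The sequences are from RefSeq (GRCm38.p6, 250 bases before to 50 bases after the transcript start), and 27 of the 36 members were matched by symbol. The ISRE core, the letters GAAA, any 2 bases, and GAAA again, was searched on both strands and occurred in 15 of the 27 (55.6%) and in 3.99% of all 27025 symbols, or 3.44% of 32851 promoters. The GAS core TTCNNNGAA, which reads the same on both strands, occurred in 8 of 27 members (29.6%), in 9.55% of all symbols and in 8.3% of promoters. The 2 patterns can overlap, as they do in Bst2. Stat2 and Ifit1 are printed because their groups did not overlap and their promoter holds the ISRE core. Ifit3 and Gbp7, which had lower means with the antagonist, and Irf1, whose difference was largest in the list, were added after their values were seen. Capitals mark the matched core, which for the ISRE lies on the strand opposite to the gene in each case.
Stat2, ISRE, chr10:128270248-128270320, plus strand, 250 to 178 bases upstream: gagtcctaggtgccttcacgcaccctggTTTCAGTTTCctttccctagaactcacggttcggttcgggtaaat
Ifit1, ISRE, chr19:34640750-34640848, plus strand, 139 to 41 bases upstream: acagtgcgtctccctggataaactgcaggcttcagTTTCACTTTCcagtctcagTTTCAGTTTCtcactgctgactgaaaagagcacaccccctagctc
Ifit3, ISRE, chr19:34583338-34583451, plus strand, 191 to 78 bases upstream: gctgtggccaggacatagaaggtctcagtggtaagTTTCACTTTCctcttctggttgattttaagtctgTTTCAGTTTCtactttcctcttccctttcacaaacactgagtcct
Gbp7, ISRE, chr3:142530248-142530327, plus strand, 88 to 9 bases upstream: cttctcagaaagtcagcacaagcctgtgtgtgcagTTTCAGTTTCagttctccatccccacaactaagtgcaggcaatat
Irf1, GAS, chr11:53769889-53769967, plus strand, 125 to 47 bases upstream: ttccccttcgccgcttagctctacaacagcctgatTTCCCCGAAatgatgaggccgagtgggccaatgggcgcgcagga
Ifit1 and Ifit3 each carry a pair of ISRE cores in the same order and orientation. Stat2 and Gbp7 share the letters of the second one. Among tested members with a promoter sequence, the ISRE core was present in 10 of 19 that were higher with the antagonist and in 3 of 4 that were lower, so holding it did not separate the directions. A match describes letters in this window and not occupancy by a factor.

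As a list, the members were higher in the antagonist group by a small margin, and not in every antagonist heart. Relative to the mean of the sham arrays, the median member was 0.25, 0.15 and 0.01 higher in antagonist replicates 1, 2 and 3. That median was 0.03 in sham replicate 1 and -0.03 in sham replicate 2. Of 31 tested members 26 had a higher mean with the antagonist, 4 a lower mean, and Dhx58 had the same value on every array. The median log2 difference was 0.15, where the median over all tested genes was 0 and 47.7% of genes were higher. By role the median was 0.11 for the 7 signalling factors (6 higher, 0 lower), 0.16 for the 21 effectors (18 higher, 3 lower) and 0.11 for the 3 GBPs (2 higher, 1 lower). No member passed the test. With limma, 0 of 31 members and 0 of 15294 genes (0%) had an adjusted p under 0.05, and the smallest adjusted p of a member was 0.637. At an unadjusted limma p under 0.05, 1 member, Oas2, was higher and 0 were lower, where the shares over all genes were 2.23% higher and 2.37% lower. Labels describe the arrays as biological replicates, and their number limits the precision of every comparison.

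The groups did not overlap for 6 of 31 members (19.4%), all higher with the antagonist: Stat2, Ifit1, Ifit2, Cmpk2, Oas2 and Zbp1. Over all genes the shares were 6.19% higher and 6.33% lower, and 0 members were lower without overlap. A tied value across the groups prevents such a gap, ties were frequent in these RMA (robust multi-array average) values, and 48.4% of members but 26.1% of all genes had 5 different values on the 5 arrays. Among the 15 members without ties, 4 (Stat2, Ifit1, Cmpk2 and Oas2) were higher without overlap and 0 lower. The corresponding shares among 3991 untied genes were 15.1% and 15.9%. The arrays can be divided into groups of 2 and 3 in 10 ways, so that an exact permutation test, run two-sided, cannot give a p below 0.1. It gave 0.1 for Stat2, Cmpk2, Oas2 and Zbp1, 0.2 for Ifit1 and 0.4 for Ifit2.

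**Figure D1:**
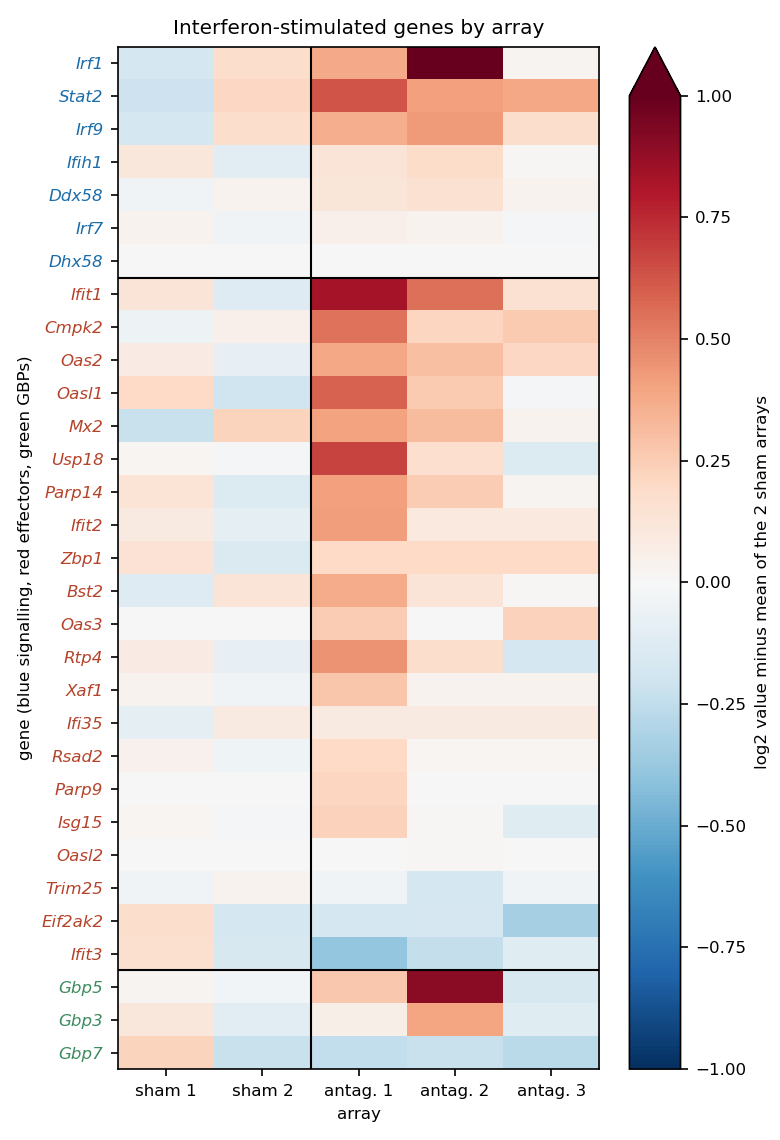
Heat map of the 31 tested members (rows, grouped as signalling factors, antiviral effectors and GBPs) on the 5 arrays (columns); colour is the log2 value minus the mean of the 2 sham arrays, and values above 1 share the darkest red. Antagonist replicate 1 is red through most effector rows, replicate 2 is darkest for Irf1 and Gbp5, and replicate 3 is pale through most of the map.

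The transcription factors Stat2, Irf9 and Irf1 gave the largest differences among the signalling genes, and Irf7 and the RNA sensors small ones. Stat2, the ISGF3 subunit specific to type I and type III interferon signalling, measured 5.55 and 5.96 in sham and 6.39, 6.16 and 6.14 with the antagonist. Each antagonist heart was above both sham hearts, and the lowest array was sham replicate 1. The log2 difference was 0.48 ± 0.17 (SE), or 1.39-fold, and it was 0.27 without sham replicate 1. Irf9, which gives ISGF3 its DNA contact, was at 5.78 and 6.13 in sham and at 6.32, 6.38 and 6.13 with the antagonist. Sham replicate 2 and antagonist replicate 3 were tied, so the groups met. Its difference was 0.32 ± 0.15, and 0.15 without sham replicate 1.

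Irf1, a factor induced by interferon gamma and NF-kB, had the largest difference of the list and the widest spread. Its values were 6.25 and 6.60 in sham and 6.81, 8.16 and 6.45 with the antagonist. Antagonist replicate 2 stood far above the rest, and replicate 3 lay between the sham hearts. The difference was 0.71 ± 0.62 (SE), and 0.20 without antagonist replicate 2. That array also held the highest atrial, adipocyte, mesothelial and macrophage marker sums, and their part in the Irf1 value was not tested. Irf7, which amplifies interferon alpha genes after infection, stayed between 5.54 and 5.62 in all hearts, with a difference of 0.02 ± 0.04.

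Of the cytosolic RNA sensors, Ddx58, which encodes RIG-I, gave 5.94 and 6.01 in sham and 6.10, 6.13 and 6.01 with the antagonist (0.10 ± 0.05, SE). Ifih1, which encodes MDA5, gave 7.11 and 6.88 in sham and 7.13, 7.18 and 7.01 with the antagonist (0.11 ± 0.10). For Ddx58 the groups met at a tied value, and for Ifih1 they overlapped. Dhx58, which encodes LGP2, was at 4.23 on all arrays. RNA sensors thus differed by at most 0.11 between the group means.

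**Figure D2:**
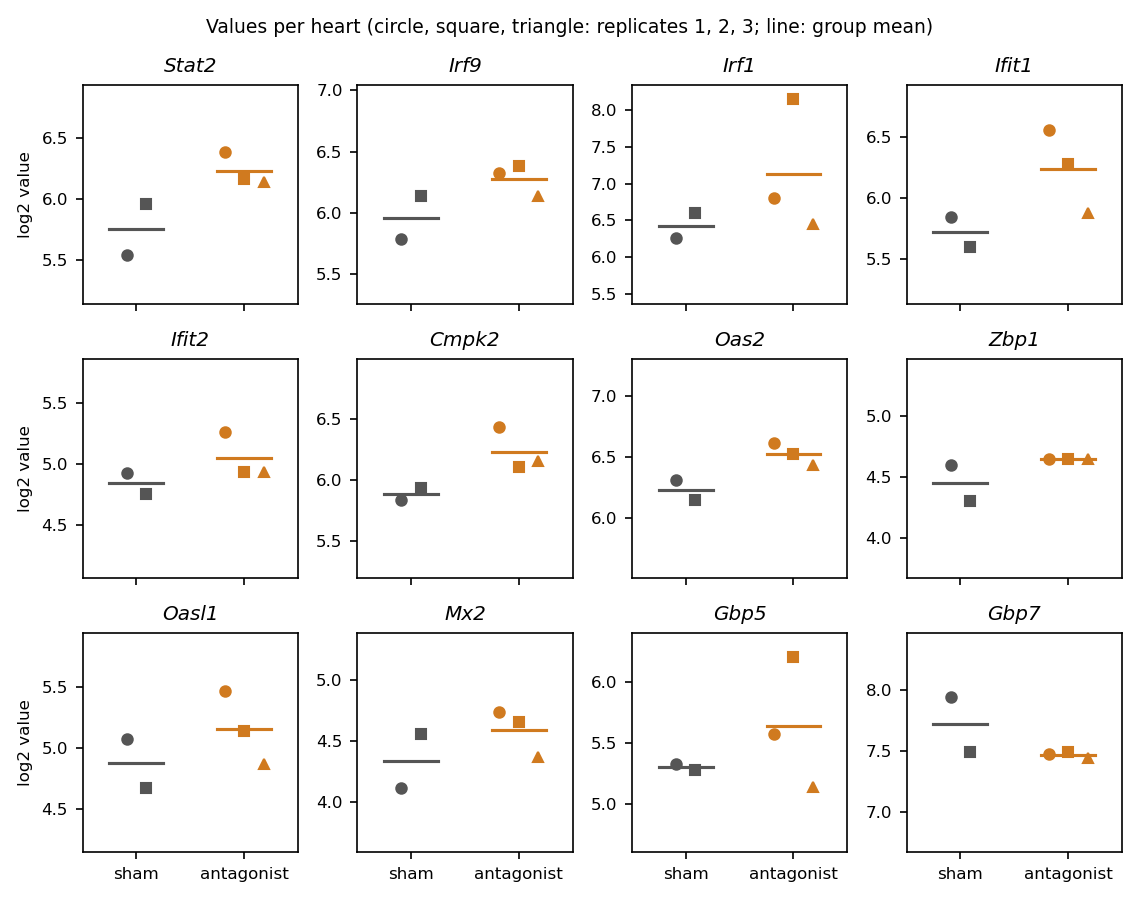
Log2 values of 12 members in each heart (points; circle, square and triangle are replicates 1, 2 and 3; lines are group means), with a vertical scale of its own in each panel. Stat2, Ifit1, Ifit2, Cmpk2, Oas2 and Zbp1 show no overlap between sham and antagonist, while Irf1 and Gbp5 stand high in antagonist replicate 2 and Oasl1 in replicate 1.

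Among the effectors the IFIT genes had differences of both signs. Ifit1, whose protein binds viral RNA lacking a methylated cap, measured 5.85 and 5.59 in sham and 6.56, 6.28 and 5.87 with the antagonist. This was the largest effector difference, 0.51 ± 0.25 (SE) or 1.43-fold, although antagonist replicate 3 was barely above sham replicate 1. Without antagonist replicate 1 it was 0.35. Ifit2 measured 4.93 and 4.76 in sham and 5.27, 4.94 and 4.94 with the antagonist (0.20 ± 0.14), and 0.10 without antagonist replicate 1. Sham replicate 1 and antagonist replicates 2 and 3 were nearly equal, so the absence of overlap rests on a very small gap. Ifit3, a partner of IFIT1, gave 5.74 and 5.43 in sham and 5.19, 5.35 and 5.47 with the antagonist (-0.25 ± 0.14). It was -0.09 without sham replicate 1 and -0.41 without sham replicate 2. Antagonist replicate 1, the highest array for Ifit1 and Ifit2, was the lowest for Ifit3. Its close copy Ifit3b differed by 0.02, but lay next to the level filter of 3.42. It was at 3.42 on sham replicate 1 and tied at 3.47 on every other array. Cross-hybridisation between such copies was not assessed.

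Cmpk2, a mitochondrial nucleotide kinase gene next to Rsad2, measured 5.84 and 5.94 in sham and 6.44, 6.11 and 6.15 with the antagonist. All antagonist hearts exceeded both sham hearts, by a mean of 0.34 ± 0.13 (SE), or 1.27-fold. Rsad2, which encodes viperin, differed by 0.08 ± 0.08 (0.02 without antagonist replicate 1), with tied values in antagonist replicates 2 and 3.

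OAS enzymes make the oligoadenylates that activate RNase L. Of the OAS and OAS-like genes, Oas2 had the smallest unadjusted limma p of the list. Its values were 6.31 and 6.15 in sham and 6.61, 6.53 and 6.44 with the antagonist, a difference of 0.30 ± 0.08 (SE) or 1.23-fold. Leaving out each array in turn gave 0.21 to 0.38. Oasl1, which restrains Irf7 translation in mouse cells, measured 5.08 and 4.68 in sham and 5.47, 5.14 and 4.87 with the antagonist (0.28 ± 0.24), so that replicate 3 lay between the sham hearts. It was 0.08 without sham replicate 2. Oas3 was at 4.41 on both sham arrays and on antagonist replicate 2, and at 4.66 and 4.64 on replicates 1 and 3 (0.16 ± 0.09). Oasl2 lay between 5.75 and 5.77 throughout, and the sign of its near-zero difference (0.0051) turned under a second quantile normalization (-0.00059).

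Zbp1, a sensor of Z-form nucleic acid that can trigger necroptosis, measured 4.59 and 4.30 in sham and 4.65 in each of the antagonist hearts. Its antagonist values were exactly equal, so all of its spread was among the sham arrays. The difference of 0.20 ± 0.10 (SE) was 0.05 without sham replicate 2. Mx2, an Mx GTPase gene, gave 4.12 and 4.56 in sham and 4.74, 4.66 and 4.38 with the antagonist (0.25 ± 0.20), and 0.03 without sham replicate 1. Bst2, which encodes the virion tether tetherin, differed by 0.17 ± 0.15, and by 0.04 without sham replicate 1. Eif2ak2, which encodes the kinase PKR, had a mean difference of -0.23 ± 0.14, and -0.05 without sham replicate 1. That sham heart was the lowest array for Mx2 and Bst2 and the highest for Eif2ak2.

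The ISG15 system and the enzymes of ubiquitin and ADP-ribose transfer differed little on average. Usp18, the protease that removes ISG15 and blocks the type I receptor, was at 5.59 and 5.55 in sham and at 6.24, 5.74 and 5.44 with the antagonist. Replicate 1 was well above the sham hearts and replicate 3 below both. Its difference was 0.24 ± 0.28 (SE), and 0.02 without antagonist replicate 1. Isg15, the ubiquitin-like modifier itself, differed by 0.04 ± 0.12, and by -0.055 without the same array. Parp14 (0.23 ± 0.16) and Parp9 (0.07 ± 0.08) encode ADP-ribosyltransferases, and Parp9 was at 6.14 on every array but antagonist replicate 1 (6.35). Trim25, the ubiquitin ligase that activates RIG-I, differed by -0.08 ± 0.06. The remaining effectors Rtp4, Xaf1 and Ifi35 differed by 0.15, 0.11 and 0.09, and a second probe of Ifi35 gave 0.07. Without antagonist replicate 1 the differences were 0.0014 for Rtp4, 0.03 for Xaf1 and 0 for Parp9. Without sham replicate 1 Ifi35 was at 0, and without sham replicate 2 Parp14 was at 0.09.

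GBPs, which attack the vacuoles of intracellular pathogens, had differences of both signs. Gbp5 measured 5.33 and 5.28 in sham and 5.57, 6.20 and 5.14 with the antagonist (0.33 ± 0.36, SE), and the difference was 0.05 without antagonist replicate 2. Gbp3 followed the same order of antagonist hearts (5.10, 5.43 and 4.92, against 5.15 and 4.93 in sham), with a difference of 0.11 ± 0.19. Gbp7 was at 7.94 and 7.50 in sham and at 7.47, 7.50 and 7.45 with the antagonist, a difference of -0.25 ± 0.15 that was -0.02 without sham replicate 1. Without antagonist replicate 2 or sham replicate 2 the Gbp3 difference was -0.028 and -0.0015. For all 3 GBPs the lowest value was on antagonist replicate 3. The GBP genes are close paralogs, and probes can bind transcripts of more than 1.

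**Figure D3:**
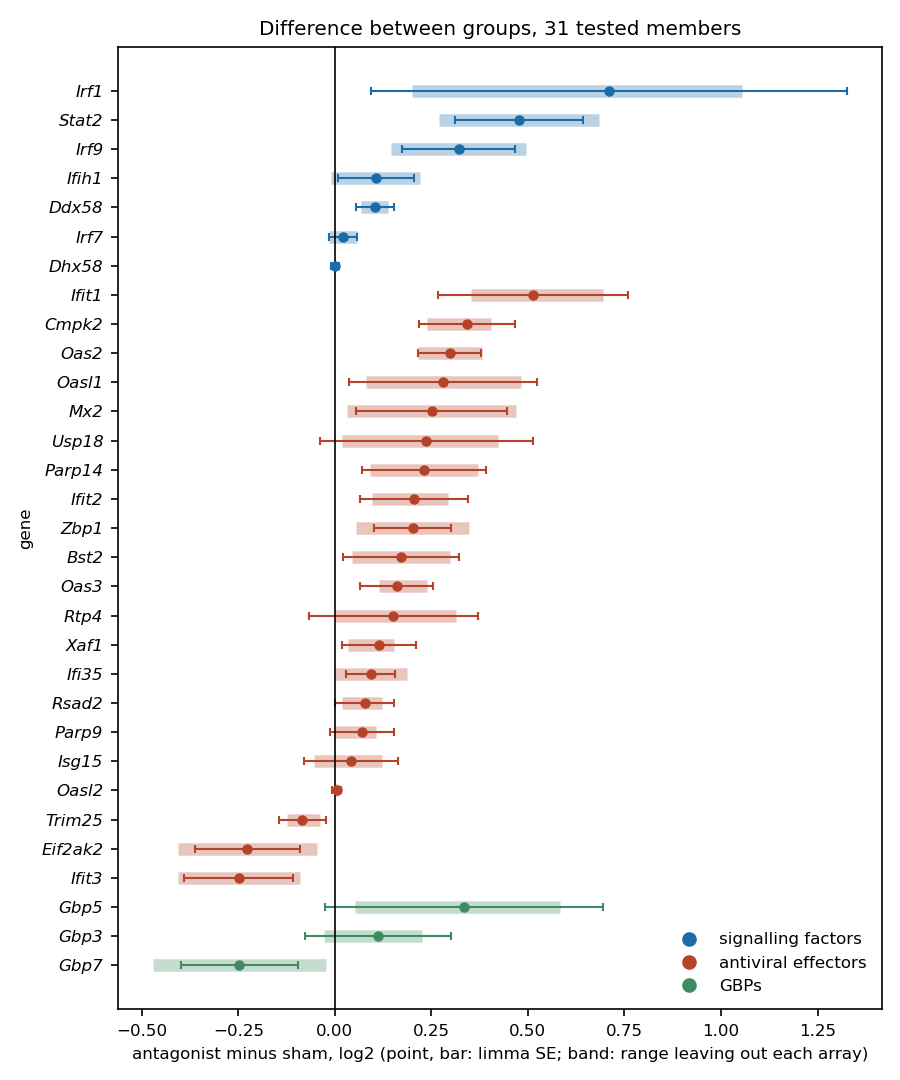
Antagonist minus sham on the log2 scale for the 31 tested members (points), with limma's standard error (bars) and the range obtained by leaving out each array in turn (bands); the vertical line marks 0. Most points lie between 0 and 0.5, the bands of Irf7, Ifih1, Isg15 and Gbp3 cross 0, those of Dhx58, Oasl2, Parp9 and Ifi35 touch it, and Trim25, Eif2ak2, Ifit3 and Gbp7 lie below it throughout.

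The high values of the list were unevenly spread over the antagonist hearts. Antagonist replicate 1 alone held the highest value of 17 of 31 members and of 15 of 21 effectors (71.4%), where it did so for 15.6% of all genes. Antagonist replicate 2 alone was highest for 7 members, including 4 of 7 signalling factors and 2 of 3 GBPs, where the share over all genes was 14.8%. Antagonist replicate 3 alone was highest for 0 of 31 members, where the share was 13.4%. The lowest value lay on sham replicate 1 alone for 8 of 31 members (3963 of 15294 genes), on sham replicate 2 alone for 10 (2371 genes) and on antagonist replicate 3 alone for 7 (2428 genes).

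Relative to the mean of the sham arrays, the median effector was 0.27 higher in antagonist replicate 1, 0.10 in replicate 2 and 0.02 in replicate 3. For the GBPs the medians were 0.06, 0.39 and -0.16, and for the signalling factors 0.13, 0.18 and 0.02. Effectors thus stood highest in replicate 1 and GBPs in replicate 2, and in replicate 3 the medians of effectors and signalling factors were near the sham level. The macrophage and monocyte marker sum (13 of 14 markers above the filter, Ccr2 below it, 9 higher and 5 lower with the antagonist) was also above both sham hearts in replicates 1 and 2 and not in replicate 3. Single markers of that list were ordered differently. Without overlap, 5 of 14 were higher (Cd14, Fcgr1, C1qa, Ctss and Ly6c2) and 1, Cd68, was lower. Over all tested genes these shares were 6.19% and 6.33%. Fcgr1 (5.22) and Ly6c2 (7.39) were highest in replicate 3. Atrial (3760), adipocyte (89.3) and mesothelial (154) sums of replicate 1 were not above the sham ranges of 3340 to 4310, 89 to 93.5 and 163 to 165. Apart from that measurement, the part of these cells in the levels of the list was not tested.

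**Figure D4:**
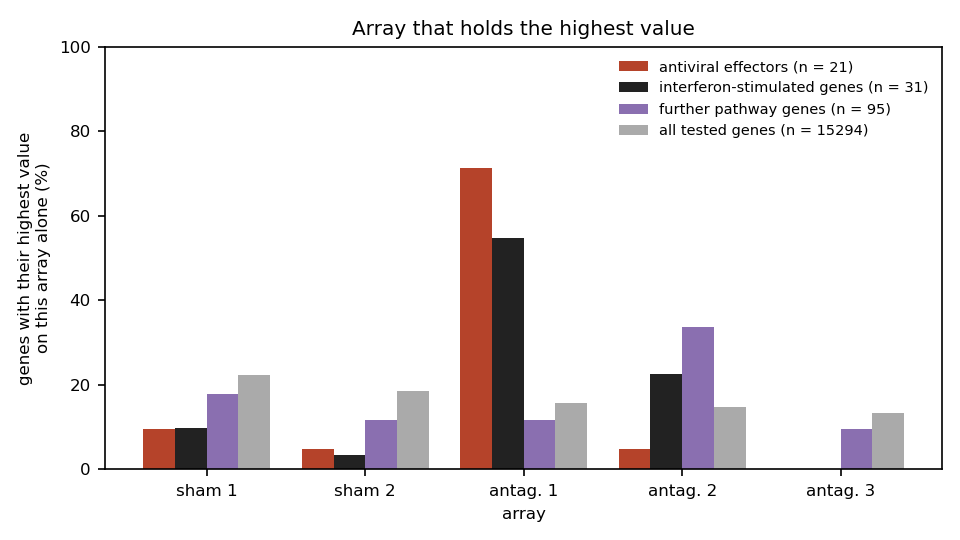
Share of genes (vertical axis, %) whose highest value lies on 1 array alone, for the 21 effectors, all 31 members, 95 further genes of the pathway and all 15294 tested genes; ties are not counted. Antagonist replicate 1 holds 71.4% of the effectors, and antagonist replicate 2 holds 33.7% of the further pathway genes.

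**Figure D5:**
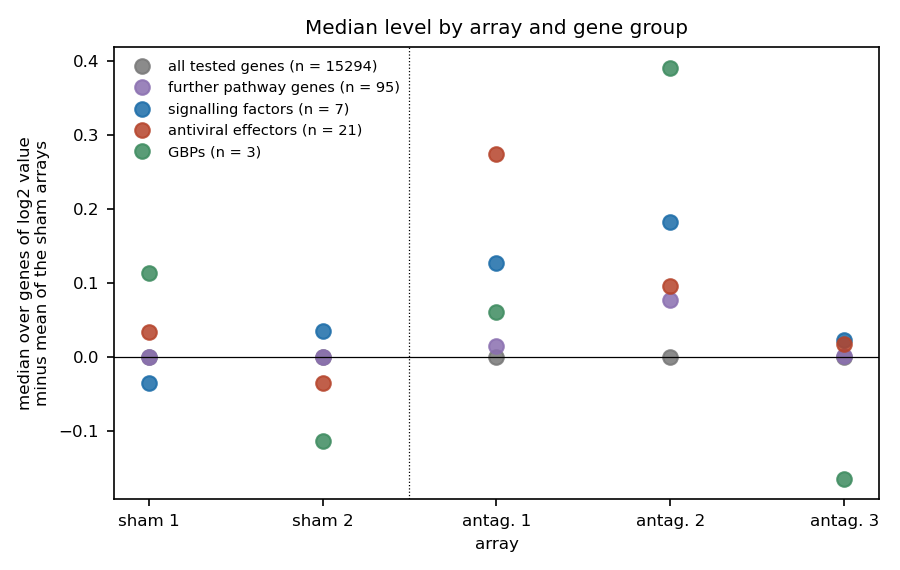
Median over genes of the log2 value minus the mean of the sham arrays, for each array (horizontal axis) and gene group (colours). Effectors are at 0.27 in antagonist replicate 1, GBPs at 0.39 in replicate 2, and all tested genes at 0 in every array.

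With single arrays left out, 23 of the 31 members kept the sign of their difference, 19 higher and 4 lower. These fits share most of their arrays, and no share over all genes is set beside this count. The median of the list was 0.09 without antagonist replicate 1 and 0.08 without sham replicate 2, and at most 0.20, which was reached without antagonist replicate 3. For the effectors it was 0.07 without antagonist replicate 1 and 0.08 without sham replicate 2. The GBP median was -0.0015 without sham replicate 2 and -0.028 without antagonist replicate 2. Without antagonist replicate 3 the groups did not overlap for 16 of 31 members that were higher, against 9.23% of all genes; without replicate 1 or 2 the counts were 6 and 7, against 8.37% and 8.76%. With a single sham array left, whose spread is then assumed to be that of the antagonist group, limma called a few members. Without sham replicate 1 this was Zbp1 (0.35, adjusted p = 0.00322), and 8.57% of all genes were called. Without sham replicate 2 these were Zbp1 (0.05, adjusted p = 0.0141), Ifi35 (0.19, adjusted p = 0.00236) and Gbp7 (-0.47, adjusted p = 0.0129), and 13.5% of all genes were called. The antagonist values of Zbp1 and Ifi35 were exactly equal, so their residual spread in these fits was 0.

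The rest of the pathway was examined through 124 further genes, of which 95 were tested. With limma 0 of the 95 passed an adjusted p under 0.05, 56 were higher and 37 lower, and the median log2 difference was 0.02. At an unadjusted limma p under 0.05, 5 were higher and 1 lower, beside 2.23% and 2.37% of all genes. The groups did not overlap for 13 that were higher (13.7%) and 2 that were lower (2.11%), beside 6.19% and 6.33% of all genes. Ties prevent such a gap, and 34.7% of these genes but 26.1% of all genes had 5 different values. Among the 33 without ties, 6 were higher without overlap and 1 was lower. The shares among all untied genes were 15.1% and 15.9%. Most ligand genes were not measurable. Of 18 with a probe of their own, 11 lay below the level filter, among them Ifnb1, the first type I interferon made after infection, at 2.96 to 2.99. Ifng, the interferon gamma gene of lymphoid cells, lay between 4.29 and 4.40. Ifna4 ranged from 5.36 to 6.60, both extremes in sham hearts, and the interferon alpha genes are near-copies whose probes may not tell them apart.

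Receptor genes differed little. Ifnar1 and Ifnar2, the chains of the type I receptor, differed by -0.03 ± 0.11 (SE) and 0.13 ± 0.12, and the 9 tested receptor and kinase genes ranged from -0.18 to 0.14. The lowest was Ifnlr1, at -0.18 ± 0.05 (limma unadjusted p = 0.0256, adjusted p = 0.637). Its groups did not overlap, with 4.19 and 4.15 in sham and 4.05, 4.02 and 3.92 with the antagonist. Among genes that induce interferon, Sting1, the adaptor of cytosolic DNA sensing, measured 5.04 and 5.05 in sham and 5.38, 5.59 and 5.38 with the antagonist. Every antagonist heart was above both sham hearts, and the difference was 0.40 ± 0.09 (limma adjusted p = 0.637). Cgas, its upstream DNA sensor, was below the filter at 3.02 on all arrays. Of the feedback genes, Ptpn11, which encodes the phosphatase SHP2, differed by 0.28 ± 0.11 without overlap, while Socs1 differed by 0.07 and Socs3 by 0.10, and a second probe of Socs3 gave 0.27.

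Of 41 further tested interferon-responsive genes, 27 were higher and 14 lower. The groups did not overlap for 10 of them that were higher (24.4%) and 1 that was lower (2.44%), where the shares over all genes were 6.19% and 6.33%. Among the 10 without ties, 4 were higher without overlap and 0 lower, beside 15.1% and 15.9% of all untied genes. Ifi205, of the PYHIN family, measured 9.09 and 8.72 in sham and 9.80, 9.74 and 9.69 with the antagonist. This was the largest difference in the pathway, 0.84 ± 0.13 (SE) or 1.79-fold, and the antagonist hearts lay close together (limma adjusted p = 0.637). Genes of this family are near-copies, so the probe may read more than 1 of them. Ifitm2, which encodes a membrane protein that limits viral entry, gave 5.14 and 4.94 in sham and 5.21, 6.02 and 5.68 with the antagonist (0.60 ± 0.28). Slfn2, a Schlafen gene of immune cell quiescence, gave 5.45 and 5.86 in sham and 6.26, 6.35 and 5.89 with the antagonist (0.51 ± 0.22). Ifi27 differed by 0.58 ± 0.36, Helz2 by 0.41 ± 0.10 and the immunity-related GTPase gene Igtp by 0.26 ± 0.10, and none of these 5 genes had overlapping groups. For Ifi27 that rests on a very small gap, since sham replicate 2 and antagonist replicates 1 and 3 all measured 5.96. Ifitm2, Ifi27 and Slfn2 were highest on antagonist replicate 2. In the chemokine and antigen-processing genes the 18 tested members were split, 10 higher and 8 lower. Antagonist replicates 1, 2 and 3 alone were highest for 0, 7 and 1 of them, beside 15.6%, 14.8% and 13.4% of all genes. Sham replicates 1 and 2 alone were highest for 4 and 6, beside 22.3% and 18.5%.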

How the data were processed

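Per the submitters' processing notes, the deposited log2 values were made by the authors with RMA, which corrects background, quantile-normalizes and summarises probes; its version, settings and build were not stated in the sources used here. Median levels of the 5 arrays were 3.92 to 3.95. Of 41345 probes, 23521 name 1 symbol in GEO's platform annotation, 1814 name several and 16010 are not listed in it. Each of 22180 symbols was represented by its brightest single-symbol probe, and the test covered 15294 whose mean reached 3.42, the 40th percentile over probes. Tmem173 and Mb21d1 were updated to Sting1 and Cgas through RefSeq. Antagonist minus sham was fitted over all of them with limma 3.58.1 in R 4.3.3 (lmFit, eBayes, Benjamini-Hochberg), after a test on simulated data. With a prior of 0.69 degrees of freedom, the standard errors rest mainly on each gene's own 5 arrays. RMA returned tied values often: 73.9% of tested genes had fewer than 5 different values. Labels call the arrays biological replicates, and whether hearts shared a day is not stated. Marker sums add linear levels.

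The members, roles and lists were chosen with earlier results of these data known. Array values were to be given for signalling factors and for members without overlap or with a difference of at least 0.25 in size; likewise further pathway genes were to be named if without overlap and at least 0.25 in size, together with Ifnar1, Ifnar2, Ifnb1 and Ifng. Members given in more detail than that, and Ifna4, Ifnlr1, Cgas, Socs1, Socs3 and Ifit3b, were chosen after their values were seen. Alternatives were the level filter, the normalization, the probe rule, the variance model, array weights, a replicate block and leaving out each array; counting only genes without ties was added after seeing the data.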

Additional observations from a re-analysis of the deposited data

How the results depend on the processing

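Under the other level filters, normalizations, probe rule, variance models, array weights and the replicate block, no member, further pathway gene or other gene passed limma's adjusted p of 0.05, and each list median kept its sign. The signalling median was 0.21 with the 60th percentile filter, under which Dhx58 is no longer tested, and Oasl2 was -0.00059 after a second quantile normalization. Breaking ties by centring or by that normalization gave 7 and 6 members higher without overlap (10.9% and 9.89% of all genes), and 2 and 3 lower (2118 of 15294 and 2168 of 15323 genes). Leaving out each array in turn gave 0 to 2060 calls over all genes, 0 to 3 over the members and 0 to 13 over the further pathway genes, all calls arising without a sham array. The GBP median then ranged from -0.028 to 0.23, as did Gbp3, and differences ranged from -0.016 to 0.056 for Irf7, -0.0092 to 0.22 for Ifih1 and -0.055 to 0.12 for Isg15. The cause of these shifts was not tested.

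Sham and antagonist arrays share replicate numbers 1 and 2. Deviations of same-numbered arrays correlated at -0.108 and 0.0271 across genes, and those of the other combinations at -0.13 to 0.13. The deviations of 2 sham arrays mirror each other, so these values cannot decide whether the numbers mark pairs. The numbers were not taken as pairs in the main fit. Sham had no replicate 3, so antagonist replicate 3 did not enter the difference fitted with the replicate block. With that block the median of the members was 0.20 (26 higher, 0 called). It was 0.15 for signalling factors, 0.20 for effectors, 0.23 for GBPs and 0.04 for further pathway genes. These medians equal those obtained by leaving out antagonist replicate 3. The block changed no call.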
